A study of Panax japonicus with 15 samples.

Results

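The abundant and steady transcripts of the fruit wall of Panax japonicus, a ginseng relative grown as a medicinal herb, form a set of 212 transcript clusters out of 462117 in the deposited table. A transcript cluster, called a cluster from here on, is 1 row of the table, with an identifier of the form Cluster-number.number. The table gives TPM, a normalised transcript abundance that divides reads by transcript length and scales every library to the same total. A cluster is a member of the set if its mean TPM over the 15 libraries was at least 100 and its coefficient of variation (CV, the SD divided by the mean, over the same 15 values) was under 0.25. These values chose the members, so the levels and spreads of the members are given as a description, without a test.

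The study followed fruits through 5 periods of colour change that its labels name B, P, G, R and Y, with 3 libraries from each. The labels neither spell out the letters nor put the periods in an order, and no period is a control. In every group the tissue is pericarp, the fruit wall left once the seed has been cut out, of plants from the mountains of Guizhou, and the periods differ by nothing else that the labels name. They tie no library to a plant, a day or a number of pooled fruits. The labels call the 3 libraries of a period biological replicates.

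Transcripts that hold a steady level through development are best known for basic tasks of every living cell, such as translation, the cytoskeleton, protein turnover and central metabolism, and such genes are the usual choice for normalising quantitative PCR. A ripening fruit wall changes its pigments, cell walls and secondary metabolites at the same time, so that a steady level stands against a moving background. TPM is a share of a library: a cluster with a steady TPM kept a steady share of the sequenced RNA, which is not the same as a steady amount per cell. In these bulk samples, fewer cells of a type and less RNA per cell cannot be told apart. The table pairs no identifier with a gene name, so no function is given for any member, and no sequence is shown.

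The 212 members made up 22.0% of the 963 clusters that averaged 100 TPM or more, called abundant here. Their mean levels ran from 100 to 1213 TPM with a median of 148 TPM, and 150 of the 212 lay under 200 TPM. The median over the other 751 abundant clusters was 164 TPM. All 212 were above 0 in each of the 15 libraries, against 688 of the 751 others; the lowest single value of any member was 45.7 TPM and the highest was 1746 TPM. All 212 identifiers carry the prefix 64249, as do all 751 other abundant clusters, 95.7% of the 138664 clusters tested below and 84.0% of the whole table.

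Steadiness was not a property of the highest levels. A CV under 0.25 was found for 26.9% of the 1480 clusters with a mean from 50 to 100 TPM and for 24.3% of the 618 from 100 to 200 TPM. The share was 20.5% of the 263 from 200 to 500 TPM, 8.33% of the 60 from 500 to 1000 TPM, and 3 of the 22 above that. It was 16.8% of the 14124 clusters from 10 to 50 TPM and 1.38% of the 96548 from 1 to 10 TPM. TPM carries no read depth, so the counting error behind low levels is unknown. Among the 963 abundant clusters the CV had no gap at the limit: 83 clusters lay from 0.20 to 0.25 and 76 from 0.25 to 0.30.

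**Figure D1:**
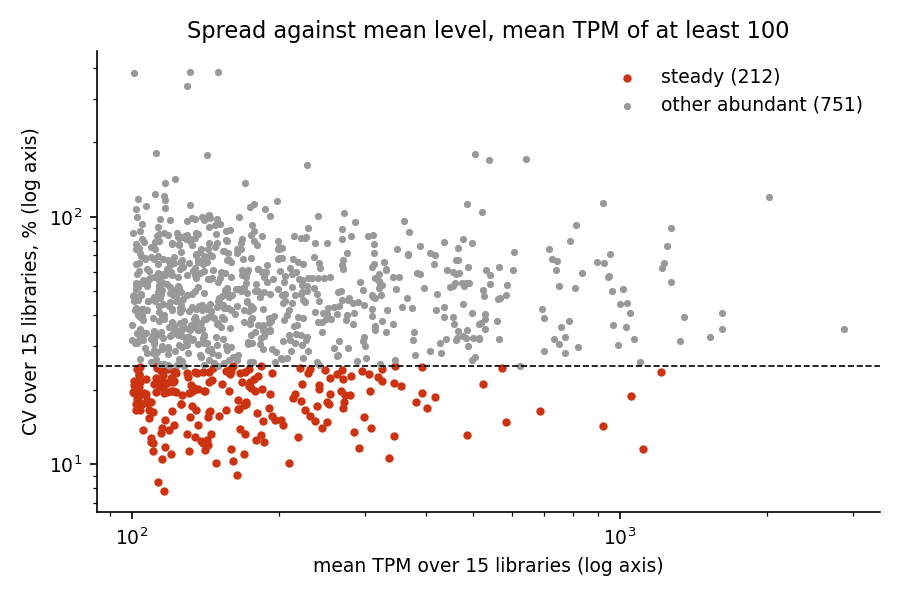
Each point is 1 of the 963 abundant clusters; the x axis is the mean TPM and the y axis the CV in percent over 15 libraries, both log axes, with the 25% limit dashed. The 212 steady clusters are red and the 751 others grey, and the points run across the limit without a gap.

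Members next to the limits had near neighbours outside. Just inside the CV limit stood Cluster-64249.127323, Cluster-64249.111258 and Cluster-64249.161112, with CVs of 24.99%, 24.97% and 24.94%. Just outside stood Cluster-64249.115432, Cluster-64249.144197 and Cluster-64249.93148, with 25.04%, 25.04% and 25.07%. Just above the mean limit stood Cluster-64249.124858, Cluster-64249.131240 and Cluster-64249.112250, at 100.4, 100.7 and 100.9 TPM. Just below it, with CVs under the limit, stood Cluster-64249.110861, Cluster-64249.116921 and Cluster-64249.160017, at 99.9, 99.7 and 99.6 TPM.

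The 5 most abundant members ranked 13th, 14th, 17th, 31st and 52nd by mean TPM in the whole table and together held 11.8% of the set's TPM. The first of them, Cluster-64249.126698, averaged 1213 ± 286 TPM over the 15 libraries (SD, n = 15). It stood at 1283, 1171 and 1134 TPM in the B libraries, 776, 1027 and 1180 in P, 1660, 1410 and 1202 in G, 914, 793 and 1113 in R, and 1540, 1249 and 1746 in Y. Its 3 Y and 3 G libraries all lay above its 3 R libraries, while P spanned the range from the lowest of all 15 libraries up to the B values. With a CV of 23.6% it was close to the limit.

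The second, Cluster-64249.125994, was more even. It stood at 991, 1013 and 1186 TPM in B, 1076, 982 and 1382 in P, 946, 1241 and 1041 in G, 1171, 1063 and 1018 in R, and 1325, 1104 and 1148 in Y, a CV of 11.6%. The 5 periods overlapped, and its period means lay between 1192 ± 117 TPM in Y and 1063 ± 107 TPM in B (SD, n = 3 each), a gap smaller than that between the libraries of P alone.

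The third, Cluster-64249.126011, was lowest in G and highest in P. It stood at 1255, 1044 and 918 TPM in B, 1355, 1083 and 1447 in P, 982, 850 and 657 in G, 1029, 1005 and 923 in R, and 1064, 987 and 1174 in Y. The 3 P libraries lay above the 3 G libraries, and the B libraries reached into both ranges. Cluster-64249.127436, the next, averaged 921 ± 132 TPM (SD, n = 15), with period means between 1024 ± 71.6 TPM in Y and 774 ± 85.5 TPM in G (SD, n = 3 each). Cluster-64249.125747 averaged 687 ± 112 TPM (SD, n = 15), between 775 ± 80.2 TPM in R and 589 ± 66.2 TPM in P (SD, n = 3 each).

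The 5 most abundant clusters of the whole table were all outside the set. They were Cluster-64249.125422, Cluster-64249.114148, Cluster-64249.126115, Cluster-64249.124432 and Cluster-64249.130124, whose means ran between 1526 and 2879 TPM, with CVs from 32.7% to 121%. The widest of them, Cluster-64249.114148, averaged 6646 ± 237 TPM in G and 440 ± 260 TPM in B (SD, n = 3 each), next to which the members' range is narrow.

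The most even members were of moderate level. Cluster-64249.131247 had the lowest CV of the set, 7.77%, at a mean of 116 ± 9.03 TPM (SD, n = 15). It stood at 109, 108 and 127 TPM in B, 128, 105 and 115 in P, 128, 121 and 99.8 in G, 111, 117 and 119 in R, and 113, 111 and 128 in Y. All 5 periods overlapped, its period means lay between 118 TPM in Y and 115 TPM in B, and its highest library was 1.29 times its lowest. It had the smallest part of its variance between periods in the set too, 1.07%. This evenness holds for TPM as deposited: after median-ratio scaling, in which each library is divided by its median ratio to the mean profile of the 33508 clusters above 0 in all libraries, its CV was 13.0% and its highest period was P.

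Cluster-64249.140947 followed, with a CV of 8.48% and period means between 121 ± 2.66 TPM in P and 105 ± 9.09 TPM in B (SD, n = 3 each). Cluster-64249.141618 had a CV of 9.04% and period means between 168 ± 26.3 TPM in Y and 156 ± 16.9 TPM in R (SD, n = 3 each). Cluster-64249.120520 had a CV of 10.1%, between 228 ± 22.0 TPM in Y and 189 ± 23.9 TPM in P, and Cluster-64249.143964 had a CV of 10.2%, between 162 ± 14.6 TPM in R and 130 ± 11.0 TPM in P (SD, n = 3 each). The last of these became more even with median-ratio scaling, at a CV of 7.66%, and Cluster-64249.120520 stood at 9.57%, whereas Cluster-64249.140947 and Cluster-64249.141618 stood at 14.8% and 13.7%. Which cluster is the steadiest of the set therefore depended on the scaling. So did the order of periods: P was the lowest period of Cluster-64249.120520 as deposited and its highest with median-ratio scaling.

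Only 3 of the members had a CV under 10%, and 46 had one from 10% to 15%, 80 from 15% to 20% and 83 from 20% to 25%. The median CV was 19.2%, against 48.6% for the other abundant clusters and 104% for all tested clusters, a difference that the rule itself makes. Single values strayed further than the CV may convey. The highest library was at least 2 times the lowest for 104 of the 212 members and under 1.5 times for 12. Of the 3180 single values, 2649 lay within 25% of the member's mean, but only 28 members had all 15 values within that distance.

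Together the members held a similar slice of each library. They held 4.22% ± 0.357 of TPM (SD, n = 15), from 3.54% in P replicate 2 to 4.84% in Y replicate 3, a ratio of 1.37. By period the share was 4.22% ± 0.167 in B, 3.73% ± 0.292 in P, 4.26% ± 0.389 in G, 4.35% ± 0.0701 in R and 4.55% ± 0.253 in Y (SD, n = 3 each). P replicates 1 and 2, at 3.58% and 3.54%, lay below the 13 other libraries. P replicate 3, at 4.06%, lay above G replicate 3 at 3.85%, so the P period did not separate from the others. The pooled SD within periods was 0.258 percentage points and the SD of the 5 period means was 0.305. The 751 other abundant clusters held 15.7% ± 2.08 in P and from 17.2% ± 1.38 in B to 22.1% ± 0.562 in Y (SD, n = 3 each), and were likewise lowest in P.

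The make-up of the libraries differed between periods as well, and the order of the periods by share depended on the base. The 33508 clusters above 0 in all 15 libraries, to which every member belongs, held 51.7% ± 2.59 of TPM in P, against 59.1% ± 4.13 in B, 61.1% ± 4.14 in G, 66.0% ± 0.369 in R and 66.5% ± 0.509 in Y (SD, n = 3 each). The rest of each library was spread over clusters not found in all of them. Taken as a share of the TPM of these always-detected clusters, the members held 7.20% ± 0.223 in P, 7.15% ± 0.240 in B, 6.97% ± 0.236 in G, 6.85% ± 0.335 in Y and 6.59% ± 0.0764 in R (SD, n = 3 each). On this base P was highest and R lowest, and the highest library was 1.14 times the lowest. The 3 R libraries, from 6.54% to 6.68%, lay below the 3 P libraries, from 6.98% to 7.43%, whereas on the base of all TPM P replicates 1 and 2 had been lowest. P replicates 1 and 2 also had the fewest clusters above 0 TPM, 97466 and 130422, against 187300 in P replicate 3 and 145724 to 180948 in the 12 other libraries; the part of this in the result was not tested.

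**Figure D2:**
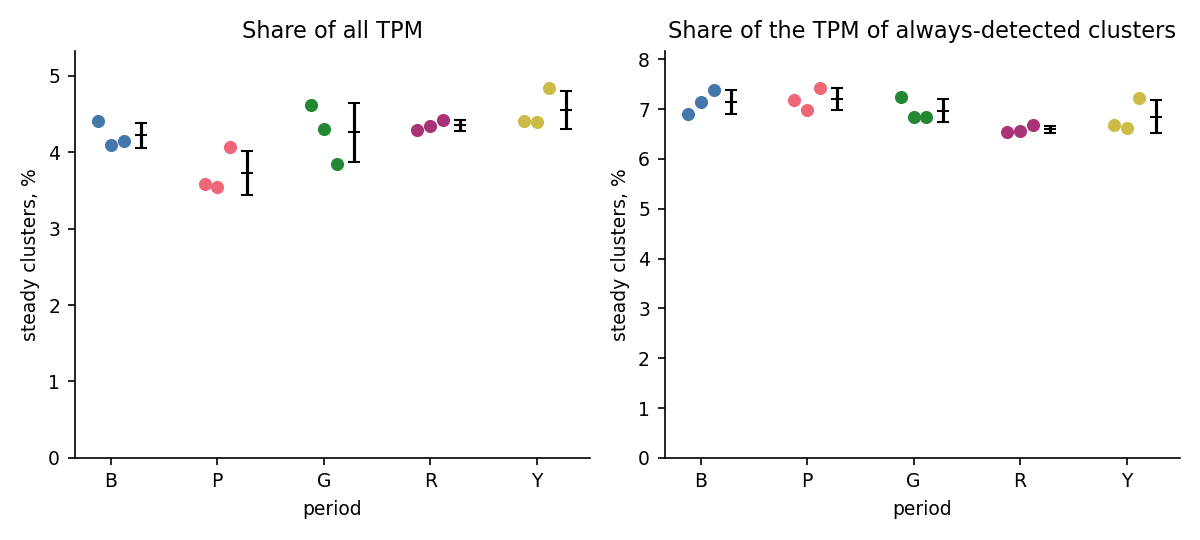
Percent of TPM held by the 212 steady clusters in each library, by period, as a share of all TPM (left) and of the TPM of the 33508 always-detected clusters (right); points are libraries, and the black bar beside them is the mean ± SD of 3. P is lowest on the left at 3.73% and highest on the right at 7.20%.

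The low share of P on the base of all TPM also showed member by member. The median level of the members relative to their own 15-library mean was 0.803 in P replicate 1, 0.801 in P replicate 2 and 0.914 in P replicate 3, against 0.936 to 1.15 in the 12 other libraries. All 3 P libraries thus had a median below every other library. P replicate 1 held the lowest value for 60 of the 212 members and P replicate 2 for 55, while 154 members lay below their mean in both and 102 in all 3 P libraries. At the upper end, Y replicate 3 had a median of 1.15 and held the highest value for 40 members, and G replicate 1 had a median of 1.09 and held the highest value for 39. R replicate 1 lay nearest to the members' means, with 140 members within 10% of theirs, compared with 48 in P replicate 1.

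**Figure D3:**
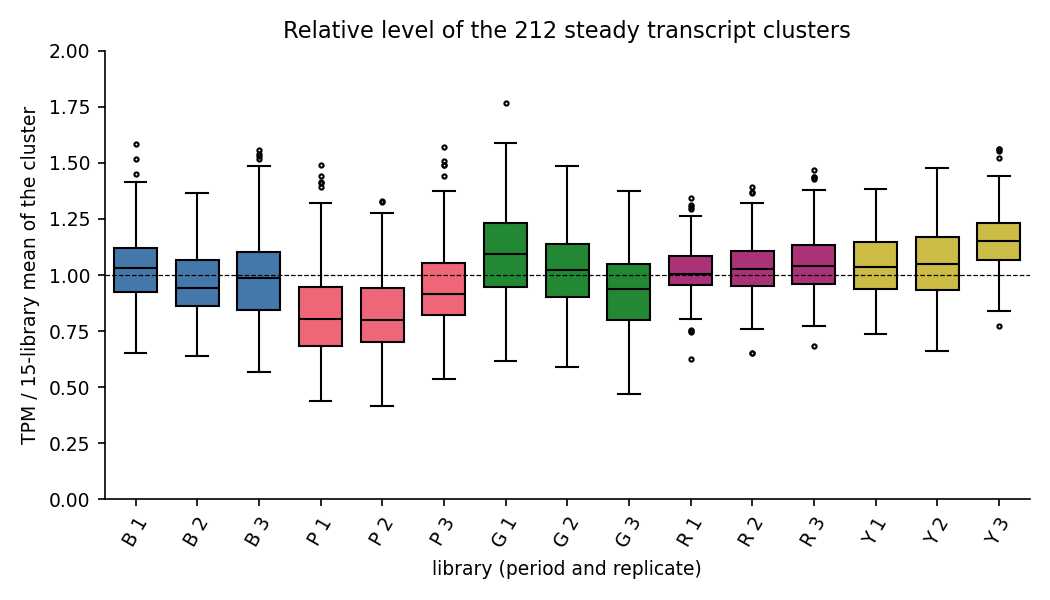
TPM of each of the 212 steady clusters divided by its 15-library mean, for every library; the box spans the quartiles with the median as a line, whiskers reach 1.5 times the box height and points lie beyond. The medians of P replicates 1 and 2 lie near 0.80 and that of Y replicate 3 at 1.15.

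The low level in P was not particular to the members. Over all 33508 always-detected clusters the median relative level was 0.803, 0.826 and 0.827 in P replicates 1, 2 and 3, against 0.895 to 1.08 in the 12 others. After median-ratio scaling the members' medians were 0.952, 0.924 and 1.05 in P replicates 1, 2 and 3, within the range of 0.895 to 1.12 of the 12 others. Scaling each library to the TPM total of the always-detected clusters, a choice made after seeing the data, gave 0.975, 0.959 and 1.01 in the P libraries and 0.933 to 1.06 in the others.

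By period means, P was the lowest period for most members on the TPM as deposited. It was lowest for 127 of the 212, or 59.9%, G for 35, B for 27, R for 14 and Y for 9. The highest period was Y for 82 members, G for 44, R for 42, B for 35 and P for 9, and the most frequent pairing was highest in Y and lowest in P, with 58 members. With median-ratio scaling P was lowest for 46 and highest for 48, B was lowest for 65 and G highest for 73. All 3 P libraries lay below all 12 others for 32 members, or 2 with median-ratio scaling, where over all tested clusters this held for 1.52%, or 0.739% with that scaling. The members were chosen on the same values, and nothing is read from these counts.

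The extent of the differences between periods was small by construction. The highest period mean was a median of 1.46 times the lowest, from 1.02 to 2.04 times, compared with 3.15 times for the other abundant clusters and 3.69 times for all tested clusters. It was under 1.25 times for 22 members and over 1.5 times for 92. Scaled by median ratios, the same 212 clusters had a median of 1.37 times, and 200 of them still had a CV under 0.25. On all 3 scalings together, 196 of the 212 did.

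The widest gap between period means was that of Cluster-64249.133672, the one member past 2 times. It stood at 497, 403 and 397 TPM in G, 192, 185 and 258 in P, 326, 321 and 371 in B, 299, 315 and 309 in R, and 325, 328 and 360 in Y. The 3 G libraries lay above and the 3 P libraries below all others. Between them, B and Y overlapped, and the 3 R libraries lay just below both. Its G mean of 432 ± 55.9 TPM was 2.04 times its P mean of 212 ± 40.2 TPM (SD, n = 3 each), and 1.81 times with median-ratio scaling.

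The next 4 members by this ratio were highest in Y and lowest in P. Cluster-64249.107316 averaged 289 ± 8.0 TPM in Y and 149 ± 31.7 TPM in P, Cluster-64249.119374 averaged 227 ± 12.9 and 118 ± 20.9, Cluster-64249.142242 averaged 129 ± 15.0 and 67.1 ± 12.3, and Cluster-64249.109101 averaged 234 ± 6.94 and 123 ± 29.0 (Y before P, SD, n = 3 each). The ratios ran from 1.91 to 1.93. With median-ratio scaling they ran from 1.56 to 1.64, with P still the lowest period for each and Y the highest for all but Cluster-64249.109101, which was then highest in G.

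Spread within periods and spread between them were of similar size over the set. The SD of the 5 period means was a median of 15.0% of the member's mean, and the pooled SD of libraries within a period was a median of 12.8%. The SD between period means was the larger of the 2 for 123 members, or 58.0%, compared with 605 of the 751 other abundant clusters, or 80.6%, and 23.7% of all tested clusters. A period mean of 3 libraries carries part of the spread within its period, so the 2 figures are not independent. Means of 3 libraries also vary less than single libraries. Equal figures are therefore not the level to be met without period differences. Between-period differences took a median of 60.4% of a member's total variance, with 4 of the 14 degrees of freedom. That share ran from 1.07% to 97.4%, and its median was 77.9% over the other abundant clusters and 36.8% over all tested clusters. With median-ratio scaling the share was 49.7% over the same members, and the pooled SD within periods, at 13.6%, then exceeded the SD between period means, at 12.7%.

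**Figure D4:**
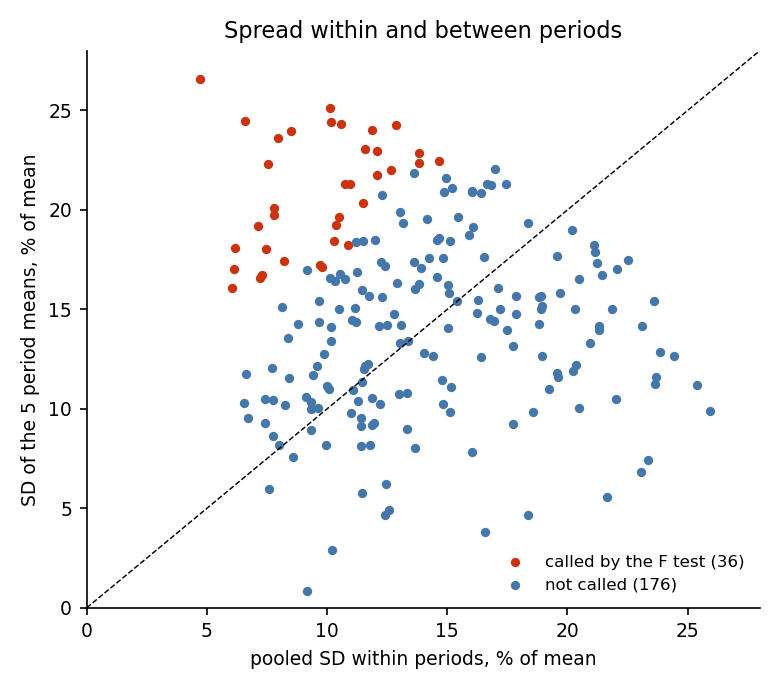
For each of the 212 steady clusters, the pooled SD of libraries within periods (x axis) and the SD of the 5 period means (y axis), both in percent of the cluster's mean TPM; the dashed line marks equality. The 36 clusters called by the F test, in red, all lie above the line, and 123 of the 212 do.

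The members with the most of their variance between periods had tight replicates. Cluster-64249.127931 stood at 246, 266 and 251 TPM in G, 125, 137 and 142 in P, 200, 226 and 214 in B, 159, 163 and 160 in R, and 158, 159 and 154 in Y. Libraries fell into separate ranges for P, for R with Y, for B and for G, in that order from low to high, and 97.4% of the variance was between periods. The pooled SD within periods was 4.73% of its mean of 184 TPM. Its CV was 24.9%, and 25.4% with median-ratio scaling, which is outside the limit. With that scaling P was no longer its lowest period. The mean was then 156 ± 7.83 TPM in P, 149 ± 1.76 in R and 148 ± 3.05 in Y (SD, n = 3 each).

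On the TPM as deposited, Cluster-64249.124724 separated 3 periods from the other 2. It stood at 356, 314 and 298 TPM in G, 279, 292 and 279 in R, and 356, 356 and 386 in Y, against 241, 200 and 201 in B and 222, 189 and 240 in P. Every G, R and Y library lay above every B and P library, and 91.4% of its variance was between periods. With median-ratio scaling Y was still its highest period and B its lowest.

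Cluster-64249.155372 and Cluster-64249.140582 were highest in Y and lowest in P on the TPM as deposited. The first averaged 162 ± 6.06 TPM in Y and 86.8 ± 9.82 TPM in P, and the second 223 ± 19.7 TPM in Y and 120 ± 5.14 TPM in P (SD, n = 3 each). Cluster-64249.153119 ran the other way from most of the set, with its lowest values in G. It stood at 92.1, 96.0 and 95.1 TPM in G, against 157, 157 and 142 in B, 128, 123 and 137 in P, 140, 145 and 136 in R, and 127, 106 and 106 in Y. All 3 G libraries lay below the 12 others.

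At the other end, Cluster-64249.128190 varied mostly within periods. Its libraries stood at 95.5, 162 and 136 TPM in B and at 103, 137 and 162 in P, against 142, 145 and 148 in Y, so that the replicates of B or of P spanned more than the 5 period means, which ran from 131 to 145 TPM. Of its variance, 5.98% was between periods, and 22.3% with median-ratio scaling, where P was its highest period.

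**Figure D5:**
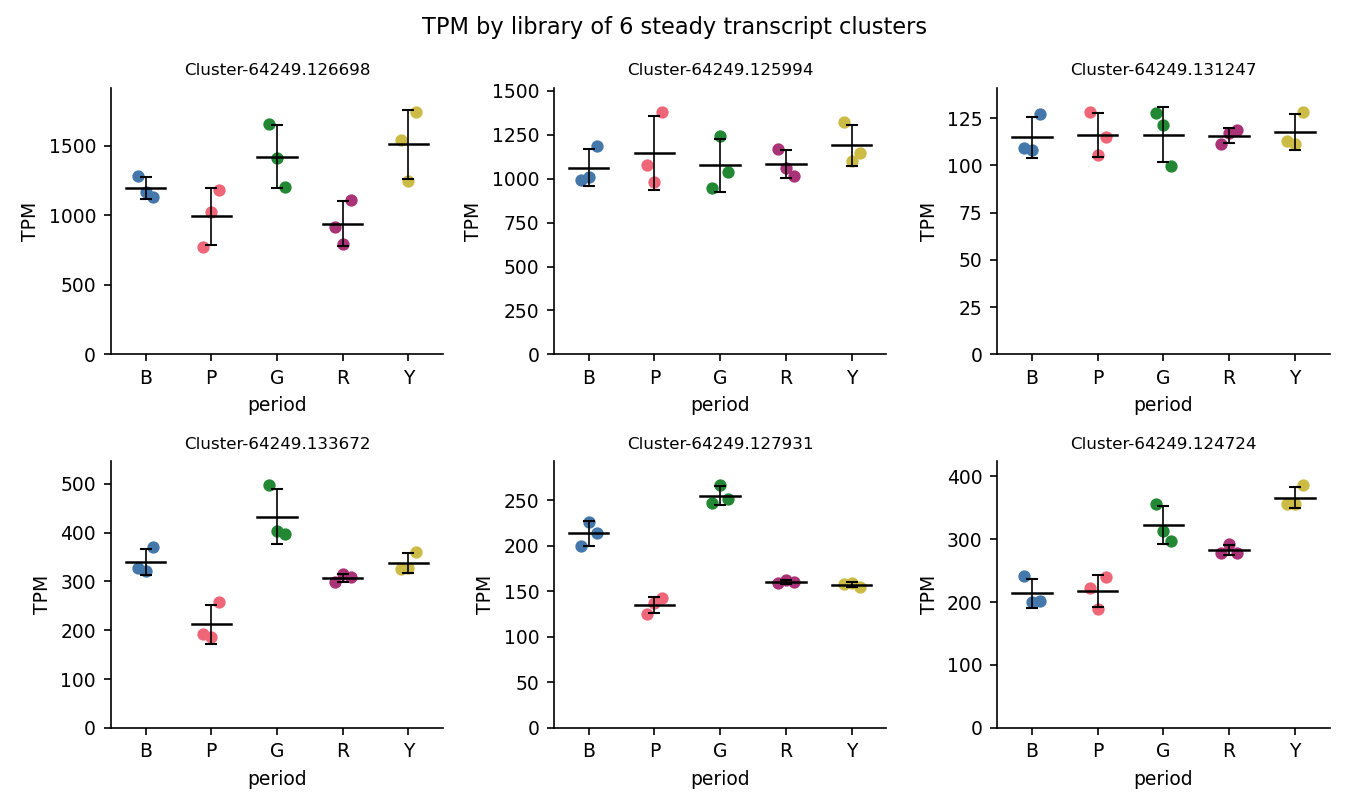
TPM in each library by period for 6 steady clusters; points are libraries, the horizontal line is the mean of 3 and the bar its SD. Cluster-64249.125994 and Cluster-64249.131247 are level over the periods. The period means of Cluster-64249.126698, Cluster-64249.133672 and Cluster-64249.127931 lie further apart, but the F test did not call Cluster-64249.126698. The G, R and Y points of Cluster-64249.124724 lie above its B and P points.

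A limma F test of differences among the 5 periods was fitted to all 138664 clusters with at least 1 TPM in at least 3 libraries. It called 36 of the 212 members, or 17.0%, at a Benjamini-Hochberg adjusted p under 0.05, against a background of 7.44% of all tested clusters and 497 of the 751 other abundant clusters, or 66.2%. All 212 members had passed the filter. The rule used the same values, so nothing is read from the difference between these shares. The 36 had a median ratio of 1.68 between their highest and lowest period means, and 29 of them were lowest in P. When the 5 period means of each were divided at their largest gap, P alone lay below it for 19 of the 36, and B and P together for 5. Over all 212 members P was the lowest period for 127, or 59.9%, and for 46 with median-ratio scaling. Nothing is read from these patterns. The count of called members depended on the variance model, the scaling and single libraries. Without a variance trend 0 members were called by limma, with 16 at an unadjusted p under 0.05, and with median-ratio scaling 19 were, of which 12 were among the 36. It was 60 without P replicate 3, 21 without P replicate 2 or Y replicate 2, 22 without Y replicate 1 or either of R replicates 1 and 2, and 23 without B replicate 2 or G replicate 2.

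The R libraries were the most alike for these clusters. The median SD among the 3 libraries of a period, in percent of the period mean, was 5.82% in R, 9.61% in Y, 10.9% in B, 12.9% in G and 15.9% in P. R was the tightest period for 106 of the 212 members and P the widest for 91. The other abundant clusters had the same order, with 11.0% in R, 16.6% in Y, 24.4% in B, 25.4% in G and 31.2% in P.

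Steadiness was also read in libraries that had no part in the choice. When the rule was applied to 14 libraries and the level was read in the 15th, a median of 78.9% of the members so chosen lay within 25% of their 14-library mean. The share ran from 50.9% in P replicate 1 to 93.6% in R replicate 2, and was 51.9% in P replicate 2, 61.4% in G replicate 1 and 71.3% in Y replicate 3. For abundant clusters that the 14 libraries left out of the set, the same share ran from 21.5% to 52.4%, with a median of 32.3%, and in each of the 15 libraries it lay below that of the members. The abundant clusters left out had failed the CV limit in the same 14 libraries, so nothing is read from their lower share. Other replicates of the period read took part in each choice. The 15 readings share libraries and are not independent.

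Leaving out a whole period gave the same reading for the period. The 12 libraries of B, G, R and Y, without P, chose 284 clusters, of which 208 were among the 212. In P, 246 of the 284 lay below their 12-library mean, with a median ratio of 0.787, and 154 lay within 25% of it. Abundant clusters not chosen by the 12 had a median ratio of 0.642 in P. With median-ratio scaling, 262 clusters were chosen and their median ratio in P was 0.954. For the clusters chosen without Y, 46 of 193 lay below their mean in Y, with a median ratio of 1.11, or 1.05 with median-ratio scaling. The median ratio was 0.964 for B, 0.994 for G and 1.02 for R, and 158 of the 179 chosen without R lay within 25% of their mean there, compared with 168 of the 263 chosen without G. The clusters chosen without G held the one that moved furthest: the lowest ratio in G was 0.0273.

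The members did not move as 1 block. Over the 15 libraries the TPM of 2 members correlated at a median Pearson r of 0.25 over 22366 pairs, and 72.4% of the pairs were positive; with median-ratio scaling the median was 0.14. All these points share the 15 libraries and the scaling to a common total, and the values are a description. The most alike pair was Cluster-64249.122563 and Cluster-64249.320050, at an r of 0.97 over 15 libraries. Cluster-64249.122563 averaged 176 ± 35.7 TPM in G and 103 ± 24.3 in P, and Cluster-64249.320050 averaged 209 ± 32.9 TPM in G and 122 ± 34.6 in P (SD, n = 3 each). The most opposed pair was Cluster-64249.103425 and Cluster-64249.125436, at an r of -0.92. Cluster-64249.103425 averaged 191 ± 24.2 TPM in B and 139 ± 15.6 in Y, and Cluster-64249.125436 averaged 146 ± 29.8 TPM in B and 216 ± 26.8 in Y (SD, n = 3 each).

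The main directions of variation among the members set periods apart, with uneven loadings among the libraries of a period. In a principal component analysis of log2 TPM, each cluster centred on its own mean, the first component held 37.3% of the variance among libraries. Its loadings were 0.55 in both P replicate 1 and P replicate 2 and 0.16 in P replicate 3. They were -0.20, -0.24 and -0.34 in Y replicates 1, 2 and 3, and -0.26 to 0.12 in the other libraries. The second component held 17.1% and set G replicates 3 and 2 apart, with loadings of 0.62 and 0.45, while G replicate 1 had 0.15. On it R replicates 1, 2 and 3 had -0.17, -0.27 and -0.29, and B replicate 1 had -0.35. The remaining libraries ran from -0.11 to 0.18. The third held 11.4%, with its highest loading of 0.66 in B replicate 3. Without P replicates 1 and 2, a choice made after seeing the data, the rule found 264 clusters, of which 206 were among the 212.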

How the data were processed

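RNA of Panax japonicus pericarp was sequenced in 15 libraries, 3 from each of 5 colour periods; per the labels' protocols, random-primed cDNA of fragmented mRNA was amplified into libraries. The authors deposited 1 table of TPM values with 2 decimals, whose 15 columns, each matched to a library by title, sum to 999997 to 1000003. Tools of assembly, alignment and quantification were not given in the sources used here. GRCm38 and mm10, which are mouse builds, stand in the submitters' processing notes; no genome was used here. TPM keeps no depth, so read numbers are unknown and no counting interval is given.

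Members were chosen by mean TPM of at least 100 and a CV (SD with n minus 1) under 0.25. The members, lists and tests were chosen with earlier results of these data known. The F test used limma 3.58.1 in R 4.3.3 on log2(TPM + 1), a scale that understates changes of low values, with 5 period means, 10 residual degrees of freedom, a variance prior that follows mean level and Benjamini-Hochberg adjustment over all 138664 clusters tested. P-values set the differences among period means against the spread of libraries within periods, and speak of these libraries only. The fit and the rule were tested on simulated data. Other steps used Python 3.11.15, pandas 2.3.3, NumPy 2.4.6 and matplotlib 3.10.9. No 2 libraries held identical values.

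Clusters were named by a rule: the 5 members highest in mean, lowest in CV, highest in period ratio and highest in between-period variance, the 2 lowest in the last, 3 on either side of each limit, the most and least correlated pairs, and the 5 most abundant clusters overall. The alternatives were other limits, median-ratio scaling, other measures of spread, leaving out libraries or the P period, and other settings of the F test. Total scaling, leaving out each other period and leaving out P replicates 1 and 2 were added after seeing the data.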

Additional observations from a re-analysis of the deposited data

How the results depend on the processing

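The number of steady clusters depended on the limits more than on the scaling or on any library. It was 129 with a CV limit of 0.20, 610 with a mean TPM of at least 50 and 62 with at least 200. It stayed between 179 and 290 under all other alternatives run, and between 200 and 234 when 1 library was left out; 189 of the 212 were kept in all 15 leave-outs. Median-ratio scaling gave 241 clusters, which held 200 of the 212 (94.3% of the set and 83.0% of the 241).

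The mean percent of TPM held, 4.22%, was 2.59% and 5.94% with CV limits of 0.20 and 0.30, 6.99% and 2.19% with mean limits of 50 and 200, 4.74% with median-ratio scaling, 5.02% with total scaling, 4.61% with the SD over n, 6.05% with the CV of the 5 period means, 5.96% without the P libraries, and 3.95% to 4.65% with 1 library left out. The median between-period percent of variance, 60.4%, was 63.5% with a CV limit of 0.30, 52.7% with median-ratio scaling, 55.8% with total scaling, 54.0% with the CV of period means, 55.2% without P, and 58.1% to 65.2% with 1 library left out. The median ratio of period means, 1.46, was 1.38 and 1.54 with CV limits of 0.20 and 0.30, 1.39 with median-ratio scaling, 1.38 with total scaling, 1.53 with the CV of period means, 1.36 without P, and 1.45 to 1.52 with 1 library left out. Under each of these the set itself is chosen anew. In a left-out library, a median of 98.2% of members lay within 50% of their mean.

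The F test called 5969 clusters when only means of 10 TPM or more were tested and 6216 with no filter, against 10313, and 7949 to 11989 with 1 library left out. Of the 212 members it called 70 with a mean TPM of at least 10 and 19 with median-ratio scaling. It called 0 members with no variance trend (lowest adjusted p 0.103, limma), and 21 to 60 with 1 library left out. The filter at 10 TPM changes both the number of clusters adjusted for and the values behind the variance prior. The cause of these differences was not tested. Over all tested clusters, deviations from the period mean in same-numbered libraries of different periods correlated at -0.06 to 0.08 over 30 pairs. Most of these clusters are low, with a median mean level of 1.45 TPM, so a deviation shared by abundant clusters could go unseen. The labels do not say that the numbers pair libraries, and the numbers were not taken to do so. With the replicate block the test called 22 members, all among the 36, and 8252 clusters in all. Depth is unknown, which limits what can be said of low values.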
